A study of Mus musculus with 24 samples.

Results

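This is the diet comparison of the series under a control oligonucleotide: livers of mice fed a high-fat diet (HFD) set against livers of mice fed a low-fat control diet (NCD), all of which had received the scrambled locked nucleic acid (Scr LNA). It takes in 8 of the 24 livers, 4 Scr LNA HFD and 4 Scr LNA NCD, and every one of the 69905 assembled transcripts (features) of the deposited table. The value of each feature in HFD livers was set over its value in NCD livers. In the other 16 livers, LNA against Mafg, which encodes a transcription factor of the small MAF family, or against the long non-coding RNA (lncRNA) LincIRS2 were given under the same diets. Total RNA of whole liver was depleted of rRNA and sequenced as strand-specific libraries.

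By the labels all mice were wild-type C57BL/6, 18 weeks old, and had received LNA for 12 weeks, while the methods of the study state an older age and a longer course for these livers. HFD supplied 54% of its energy as fat, 22% as carbohydrate and 24% as protein. NCD supplied 11% as fat, 62% as carbohydrate and 27% as protein, so a difference between the diets is also one in carbohydrate. According to the same methods the mice were male, and after LNA treatment each was given saline or insulin at random shortly before the liver was taken. Which liver had received insulin is not in the labels, so an unequal share of insulin between the groups cannot be told apart from diet. The control LNA carried by both groups was a gapmer, an antisense oligonucleotide that recruits RNase H, and is shown here because it is the background on which both diets were read.

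Scr LNA: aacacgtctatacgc

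High-fat feeding fills hepatocytes with triglyceride and brings fatty acids that are ligands of the nuclear receptors PPARA and PPARG, the regulators of genes for fatty acid oxidation and for lipid droplets. A diet poor in carbohydrate relieves the drive of SREBP1c and ChREBP on de novo lipogenesis. Obesity also blunts the pulsatile secretion of growth hormone that, through STAT5B, keeps the liver of male mice on its male pattern of cytochromes, steroid enzymes and urinary proteins.

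In these livers the male-biased and growth hormone induced genes formed the list with the most members lower under HFD, 15 of 19 beside 5.4% of all genes, among them Moxd1, Hsd3b5, Serpina12 and Mup21. Of 20 genes of the lipid droplet 8 were higher, beside 5.93% of all genes, among them Clstn3, Gpat3, Fitm1, Pparg and Cd36, while Plin2 and the others did not reach 1.5-fold or were lower. Some PPARA targets such as Cyp4a14 and Vnn1 were higher as well, and the lipogenic enzymes Scd1, Fasn, Acly and Acacb were lower. Part of these differences was also present between 2 further pools, Mafg LNA HFD and LincIRS2 LNA NCD, which share no liver with the Scr LNA groups. Those pools differ in LNA as well as in diet, and the 2 cannot be told apart. Of the male-biased genes 10 were lower in both pairs, and of the lipid droplet genes 6 were higher in both. Among all 8841 genes compared 123 were lower in both and 174 higher in both. Cyp4a14 and Vnn1 were higher in both, and the named lipogenic enzymes lower in both. Macrophage, MHC class II and neutrophil markers were lower in Scr LNA HFD than in Scr LNA NCD livers. They were higher in Mafg LNA HFD than in LincIRS2 LNA NCD livers, so the pools did not divide by diet.

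The authors deposited 1 FPKM value (fragments normalized to transcript length and to the number of mapped fragments) for each group, pooled over its 4 livers. There is hence no replicate check, no SD and no test in what follows, and a difference is one between 2 pools. Below, HFD and NCD alone mean the Scr LNA pools. Read counts were not part of the table, so the depth is unknown and no interval can be given. Of the features, 61548 were matched to 49007 Ensembl genes and 8357 had no match. Features with no match held 90.4% of the summed FPKM in HFD livers and 90.4% in NCD livers. A gene is given by its feature of highest level, which is not the total of the gene. Albumin, the leading transcript of hepatocytes, shows what this means, since the feature that carries its name was listed at 0 in both Scr LNA pools and at 2663 FPKM in the LincIRS2 LNA NCD pool. The features named for Ttr and Trf lay below 0.1 FPKM in both Scr LNA pools. Other hepatocyte markers were abundant, with Gc at 2647 FPKM in Scr LNA HFD livers, against 2379 FPKM in Scr LNA NCD livers, and Rbp4 at 533 FPKM in HFD livers, against 505 FPKM in NCD livers. A value listed at 0 may therefore be a failed estimate, and no fold is given against it. In 2303 genes with at least 2 features past the floor described next, the log2 ratios of the 2 most abundant features differed by a median of 0.16, with quartiles of 0.07 and 0.31.

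Genes were compared when the mean of both Scr LNA pools reached 0.5 FPKM, on the scale of log2((HFD + 0.1)/(NCD + 0.1)), which understates the difference of low genes. A gene was called higher or lower at 1.5-fold on that scale, and folds in the text are plain ratios of the pooled values. Of 8841 such genes, 524 (5.93%) were at least 1.5 times higher under HFD and 477 (5.4%) at least 1.5 times lower. The median log2 ratio was 0.01 and the SD over genes 0.70. Protein-coding genes made up 374 of those higher and 312 of those lower. When both pools were scaled to the summed FPKM of features named for protein-coding genes, which was 81634 FPKM in HFD livers and 86267 FPKM in NCD livers, 653 genes were higher and 393 lower. In 58 of the 8841 genes 1 of the Scr LNA pools was listed at 0. The floor was set on the same pools that are compared, so a gene near 0 in 1 of them passed only through the other.

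**Figure D1:**
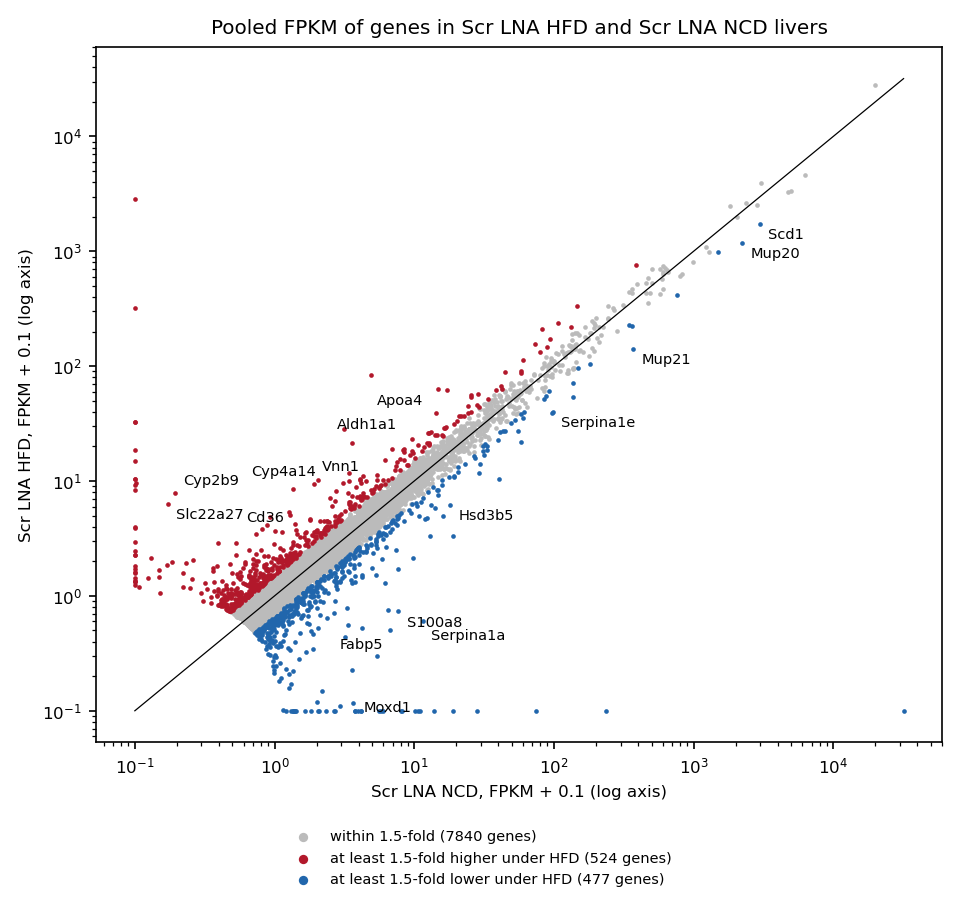
Level of each of the 8841 genes in Scr LNA HFD livers (vertical axis) and in Scr LNA NCD livers (horizontal axis), as pooled FPKM plus 0.1 on log axes, 1 point a gene. Red points are the 524 genes at least 1.5 times higher under HFD, blue points the 477 genes at least 1.5 times lower, the line marks equal levels, and points on the edge at 0.1 have a pool listed at or near 0.

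Since no spread could be had within a group, each gene was also read in a further pair of pools, Mafg LNA HFD over LincIRS2 LNA NCD. This pair shares no liver with the Scr LNA pair, but its pools differ in LNA as well as in diet, and what the LNA and the diet add to it cannot be told apart. It was chosen after the data had been seen. Mafg itself had no feature in the tables, and 4833411C07Rik, the gene of LincIRS2, had 0.483 FPKM in Mafg LNA HFD livers, against 0.345 FPKM in LincIRS2 LNA NCD livers. Of all 8841 genes, 669 (7.57%) were at least 1.5 times higher in this pair and 745 (8.43%) at least 1.5 times lower. Of the 524 genes higher under HFD with Scr LNA, 174 (33.2%) were also higher here and 65 (12.4%) were lower. Seen from the further pair, these 174 were 26% of its higher genes. Of the 477 genes lower with Scr LNA, 123 (25.8%, and 16.5% of the lower genes of the further pair) were also lower and 89 (18.7%) were higher. Direction was thus shared more often than opposed as deposited. When the pools were scaled to protein-coding features, 310 (47.5%) of 653 higher genes were higher in both pairs and 46 opposite. Of 393 lower genes 67 (17%) were lower in both and 116 opposite, so that for lower genes the balance turned. With this scaling 16.3% of all genes were higher in the further pair and 3.62% lower. Across all genes both HFD pools lay above both NCD pools in 1716 (19.4%) and below both in 2106 (23.8%). Scaled to protein-coding features, the median log2 ratio of the further pair moved to 0.24, from -0.06 as deposited, and its higher genes numbered 1442 and its lower genes 320.

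**Figure D2:**
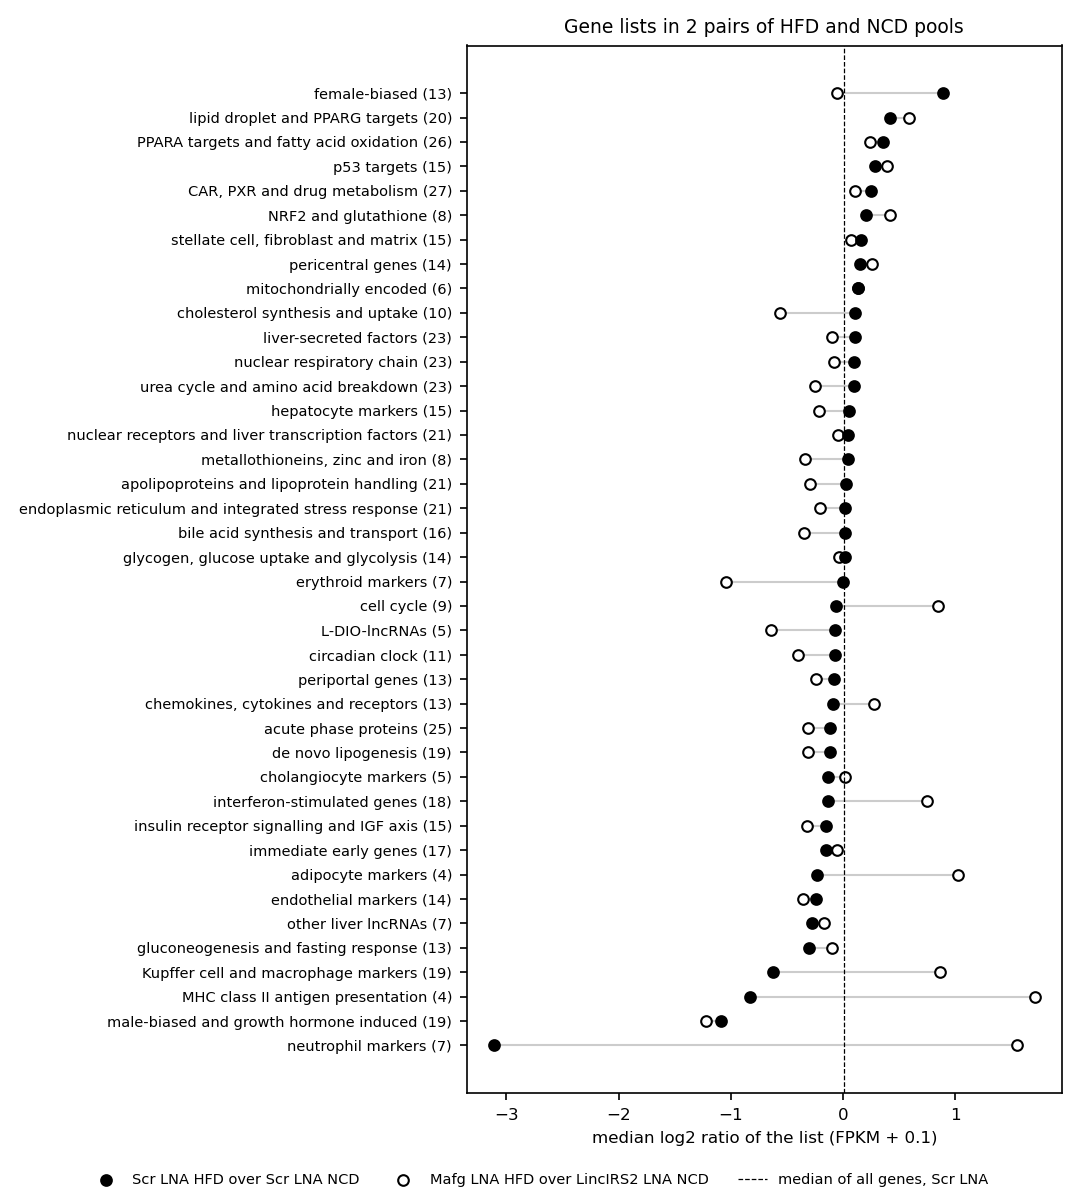
Median log2 ratio (horizontal axis) of each gene list with at least 4 genes past the floor (number in brackets), for Scr LNA HFD over Scr LNA NCD (filled) and for Mafg LNA HFD over LincIRS2 LNA NCD (open). The dashed line is the median of all genes in the Scr LNA pair, 0.01. Male-biased genes lie near -1 in both pairs, and neutrophil, MHC class II and macrophage markers lie on opposite sides.

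Part of the genes of lipid droplets and targets of PPARG were higher under HFD. Of 29 listed genes with a feature, 20 passed the floor, 8 were at least 1.5 times higher, beside 5.93% of all genes, and 1 was lower, with a median log2 ratio of 0.42 beside 0.01 for all genes. Pparg, the nuclear receptor that drives lipid storage, was at 0.92 FPKM in Scr LNA HFD livers, against 0.287 FPKM in Scr LNA NCD livers, a 3.2-fold difference. Cd36, which takes up fatty acids, was at 3.62 FPKM in HFD livers, against 1.32 FPKM in NCD livers, 2.75-fold higher. The pair with other LNA gave 1.71 FPKM in Mafg LNA HFD livers, against 0.253 FPKM in LincIRS2 LNA NCD livers for Pparg. For Cd36 it gave 4.51 FPKM in Mafg LNA HFD livers, against 1.04 FPKM in LincIRS2 LNA NCD livers, so both HFD pools stood clear of both NCD pools for either gene.

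Further members of the list, among them genes of triglyceride synthesis and of droplet growth, were on the higher side. Gpat3, which acylates glycerol phosphate, was at 4.04 FPKM in Scr LNA HFD livers, against 0.784 FPKM in Scr LNA NCD livers. Fitm1, a protein of the endoplasmic reticulum that partitions fat into droplets, was at 18.7 FPKM in HFD livers, against 6.81 FPKM in NCD livers. The feature of Clstn3, a locus whose variant product in mouse adipocytes restrains droplet growth, was at 3.36 FPKM in HFD livers, against 0.638 FPKM in NCD livers. These genes were 5.15, 2.75 and 5.27 times higher. G0s2, an inhibitor of adipose triglyceride lipase, was at 31.2 FPKM in HFD livers, against 19.2 FPKM in NCD livers, and Vldlr, a receptor of triglyceride-rich lipoproteins, at 1.48 FPKM in HFD livers, against 0.394 FPKM in NCD livers. Osbpl3, an oxysterol-binding protein, had 2.17 FPKM in HFD livers, against a listed 0 in NCD livers. The droplet coat gene Plin2 (10.9 FPKM in HFD against 8.37 FPKM in NCD), the final enzymes of triglyceride synthesis Dgat1 (3.64 FPKM in HFD against 3.56 FPKM in NCD) and Dgat2 (52.2 FPKM in HFD against 45.5 FPKM in NCD), and Cidec (1.47 FPKM in HFD against 1.53 FPKM in NCD) were within 1.5-fold. Lpl, which hydrolyses circulating triglyceride, was the 1 lower member with 1.5 FPKM in HFD livers, against 2.59 FPKM in NCD livers, and the further pair had the opposite order, 4.76 FPKM in Mafg LNA HFD against 1.93 FPKM in LincIRS2 LNA NCD. In the further pair 10 members were higher and 0 lower, and 6 were higher in both pairs. All 8841 genes gave 7.57% higher and 8.43% lower in that pair, and 174 higher in both.

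Targets of PPARA and enzymes of fatty acid oxidation had 6 of 26 members higher, beside 5.93% of all genes, and 1 lower, with a median log2 ratio of 0.36. Cyp4a14, a fatty acid omega-hydroxylase on chr4:115486200-115496142 (GRCm38), was at 8.44 FPKM in Scr LNA HFD livers, against 1.26 FPKM in Scr LNA NCD livers, 6.7-fold higher, and the further pair had 10.3 FPKM in Mafg LNA HFD livers, against 2.2 FPKM in LincIRS2 LNA NCD livers. Vnn1, a pantetheinase and PPARA target, was at 9.45 FPKM in HFD livers, against 2.98 FPKM in NCD livers, with 17.1 FPKM in Mafg LNA HFD against 4.55 FPKM in LincIRS2 LNA NCD in the further pair. Aldh3a2, which oxidizes fatty aldehydes, was at 7.81 FPKM in HFD livers, against 3.25 FPKM in NCD livers. The thioesterase gene Acot2, the dehydrogenase gene Acadm and Pdk4, which holds back pyruvate oxidation, were 1.75, 1.6 and 1.8 times higher. An abundant enzyme, Acadvl, which starts the oxidation of long chain fatty acids, was within 1.5-fold at 100.3 FPKM in HFD livers, against 84.3 FPKM in NCD livers. Both HFD pools lay above both NCD pools in 18 of 26 members, beside 19.4% of all genes. The lower member was Cyp4a12a, of the same family but with male-biased expression, at 0.206 FPKM in HFD livers, against 0.83 FPKM in NCD livers. Genes of the Cyp4a family are related in sequence, and some reads may be shared between members. Fabp1, the fatty acid carrier of hepatocytes and the most abundant member, was at 4607 FPKM in HFD livers, against 6246 FPKM in NCD livers, 1.36-fold lower and within the limit.

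Some of the enzymes that build fatty acids from carbohydrate pointed the other way. Among 19 lipogenic genes past the floor 4 were lower, beside 5.4% of all genes, and 1 was higher. The others were within 1.5-fold, and the median log2 ratio of the list was -0.12. Scd1, which desaturates stearate and was the most abundant, had 1731 FPKM in Scr LNA HFD livers, against 2966 FPKM in Scr LNA NCD livers. Fasn (fatty acid synthase) had 3.29 FPKM in HFD livers, against 5.73 FPKM in NCD livers, Acly (ATP citrate lyase) 2.52 FPKM in HFD livers, against 4.52 FPKM in NCD livers, and Acacb (acetyl-CoA carboxylase 2) 2.37 FPKM in HFD livers, against 4.4 FPKM in NCD livers. All of these were lower in the further pair as well, with Scd1 at 635 FPKM in Mafg LNA HFD livers, against 2607 FPKM in LincIRS2 LNA NCD livers. Its log2 ratio there was -2.04, and those of Fasn, Acly and Acacb were -1.73, -1.55 and -0.90. Srebf1, which encodes SREBP1, was higher with 2.16 FPKM in HFD livers, against 1.36 FPKM in NCD livers, but had 1.16 FPKM in Mafg LNA HFD against 1.77 FPKM in LincIRS2 LNA NCD in the further pair. The desaturases of polyunsaturated fatty acids were within 1.5-fold, with Fads1 at 7.11 FPKM in HFD against 6.77 FPKM in NCD and Fads2 at 136 FPKM in HFD against 131 FPKM in NCD.

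Cholesterol synthesis had 1 of 10 members higher and none lower at 1.5-fold, beside 5.93% higher and 5.4% lower of all genes. Between the further pools 1 was higher and 5 were lower, with a median log2 ratio of -0.56. All genes gave 7.57% higher and 8.43% lower between those pools. The higher member was Fdft1, squalene synthase, with 2.2 FPKM in Scr LNA HFD livers, against 0.635 FPKM in Scr LNA NCD livers and, in the further pair, 3.01 FPKM in Mafg LNA HFD against 0.186 FPKM in LincIRS2 LNA NCD, while its neighbours in the pathway Fdps and Cyp51 had log2 ratios of -0.03 and 0.14. Among 21 apolipoprotein and lipoprotein genes 1 was higher and 3 were lower, beside 5.93% higher and 5.4% lower of all genes. Apoa4, an apolipoprotein induced by liver fat in mice, was at 39.1 FPKM in HFD livers, against 14.2 FPKM in NCD livers, with 60.3 FPKM in Mafg LNA HFD against 28.8 FPKM in LincIRS2 LNA NCD in the further pair. Gm10680, an antisense transcript annotated at the Apoa4 locus (chr9:46242621-46243529), had a like ratio at 212 FPKM in HFD livers, against 81.8 FPKM in NCD livers, and reads of the overlapping genes may have been shared between them. Apoa1, the main protein of HDL, was at 983 FPKM in HFD livers, against 1499 FPKM in NCD livers, and Apom, a carrier of sphingosine phosphate, at 10.8 FPKM in HFD livers, against 19.2 FPKM in NCD livers. Both were also lower in the further pair, with log2 ratios of -0.88 and -1.05. Mttp, which loads lipid onto Apob, was at 1.4 FPKM in HFD livers, against 3.66 FPKM in NCD livers, whereas its log2 ratio in the further pair was 0.40. Apob itself was at 529.7 FPKM in HFD livers, against 459.5 FPKM in NCD livers.

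**Figure D3:**
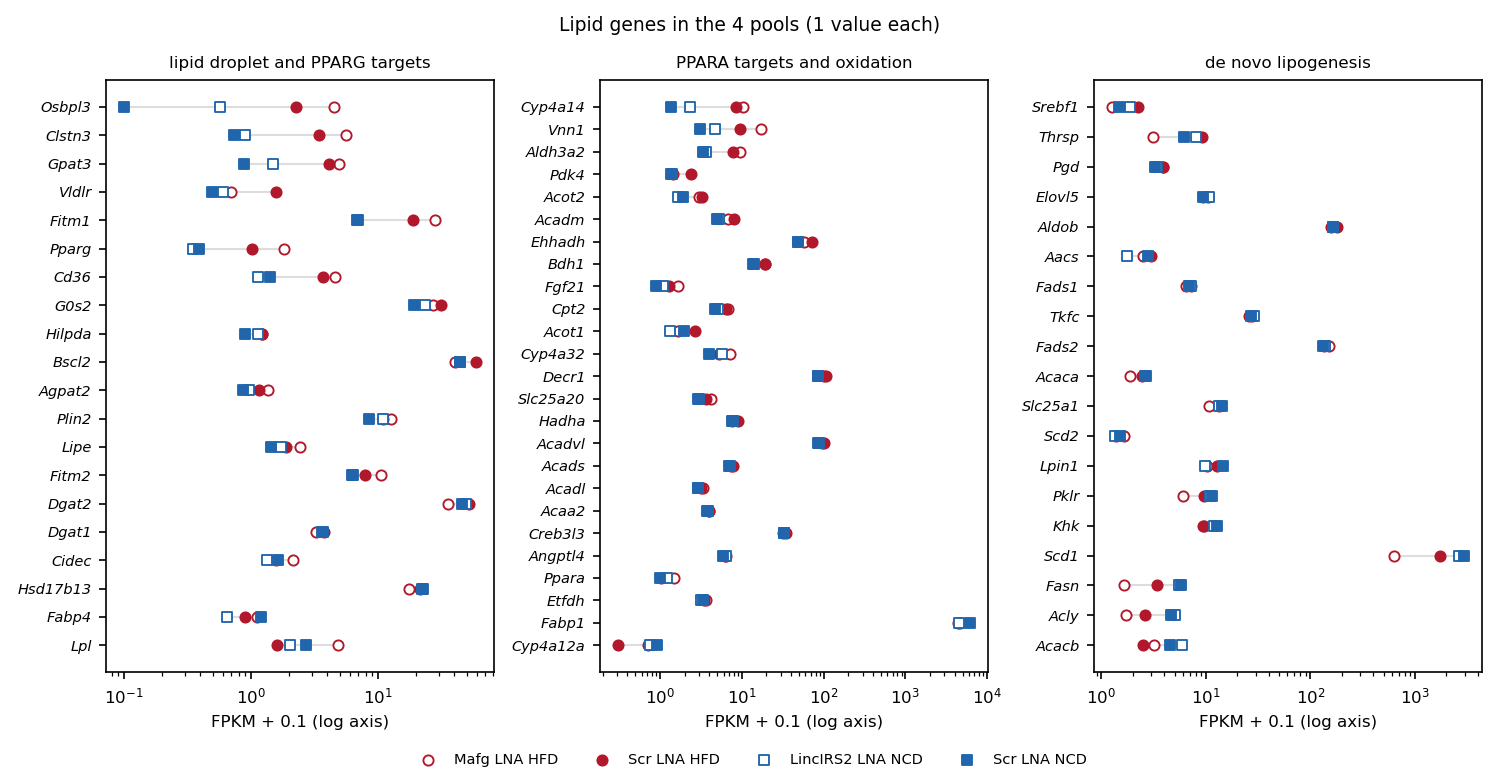
Pooled FPKM plus 0.1 (horizontal log axis) of lipid droplet, PPARA and lipogenic genes past the floor (all listed members but 1) in Mafg LNA HFD (open red circles), Scr LNA HFD (filled red circles), LincIRS2 LNA NCD (open blue squares) and Scr LNA NCD livers (filled blue squares), 1 value a group. Red symbols lie to the right of blue ones for Cd36, Pparg, Cyp4a14 and Vnn1, and to the left for Scd1, Fasn, Acly and Acacb.

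Genes of the male pattern were lower under HFD. Of 31 male-biased or growth hormone induced genes with a feature, 19 passed the floor. Of these 15 were at least 1.5 times lower and 0 higher, beside 5.4% lower among all genes, with a median log2 ratio of -1.09. In the further pair 13 were lower and 1 was higher, with a median of -1.22, and 10 were lower in both. All 8841 genes gave 8.43% lower and 7.57% higher in that pair, and 123 lower in both. Both HFD pools lay below both NCD pools in 14 of the 19 genes, where all genes gave 23.8%.

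Hsd3b5, a male-specific steroid dehydrogenase, was at 6.07 FPKM in Scr LNA HFD livers, against 18 FPKM in Scr LNA NCD livers. The further pair had 3.0 FPKM in Mafg LNA HFD livers, against 14.9 FPKM in LincIRS2 LNA NCD livers, so the HFD pools and the NCD pools did not overlap. Moxd1, a monooxygenase-like protein on chr10:24223517-24302790 (GRCm38), was at 0.0162 FPKM in HFD livers, against 3.56 FPKM in NCD livers, and at 0.0143 FPKM in Mafg LNA HFD livers, against 10.9 FPKM in LincIRS2 LNA NCD livers. Socs2, a feedback inhibitor of the growth hormone receptor and itself a target of STAT5, was at 1.22 FPKM in HFD livers, against 2.85 FPKM in NCD livers. Cyp7b1, which hydroxylates oxysterols, was at 27.4 FPKM in HFD livers, against 44.7 FPKM in NCD livers, and Slco1a1, a transporter of organic anions, at 6.06 FPKM in HFD livers, against 13 FPKM in NCD livers. Nudt7, a peroxisomal hydrolase of coenzyme A, was at 18.4 FPKM in HFD livers, against 32.9 FPKM in NCD livers. Cyp7b1 and Slco1a1 were lower in the further pair too, at 34.9 FPKM in Mafg LNA HFD against 60.4 FPKM in LincIRS2 LNA NCD for Cyp7b1 and 3.42 FPKM in Mafg LNA HFD against 10.2 FPKM in LincIRS2 LNA NCD for Slco1a1.

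Several members encode secreted proteins. Serpina12, the hepatic and adipose serpin vaspin, was at 1.67 FPKM in Scr LNA HFD livers, against 4.92 FPKM in Scr LNA NCD livers, and the complement components C6 and C8a at 14 FPKM in HFD livers, against 29.5 FPKM in NCD livers, and 7.88 FPKM in HFD livers, against 12.4 FPKM in NCD livers. The major urinary proteins, pheromone carriers encoded by a family of near-identical genes on chromosome 4, were mixed. Mup21 was at 141 FPKM in HFD livers, against 371 FPKM in NCD livers, and at 63.9 FPKM in Mafg LNA HFD against 348 FPKM in LincIRS2 LNA NCD in the further pair. Mup14 had 0.455 FPKM in HFD against 3.27 FPKM in NCD, and 1.69 FPKM in Mafg LNA HFD against 4.87 FPKM in LincIRS2 LNA NCD. Mup20 was at 1170 FPKM in HFD livers, against 2218 FPKM in NCD livers, but at 2936 FPKM in Mafg LNA HFD against 1927 FPKM in LincIRS2 LNA NCD in the further pair, the opposite order. Mup12 was at 6.36 FPKM in HFD livers, against 5.14 FPKM in NCD livers. Serpina1e was at 39.5 FPKM in HFD livers, against 98.6 FPKM in NCD livers, and Serpina1a at 0.502 FPKM in HFD livers, against 11.4 FPKM in NCD livers, while Serpina1b, a near-identical copy, was at 336 FPKM in HFD livers, against 145 FPKM in NCD livers, and Serpina1c at 629 FPKM in HFD livers, against 608 FPKM in NCD livers. Reads of the Mup and Serpina1 copies can be assigned to the wrong member, so single members are uncertain. Gstp1, a glutathione transferase higher in males, was at 21.6 FPKM in HFD livers, against 57.7 FPKM in NCD livers, and was within 1.5-fold in the further pair (52.9 FPKM in Mafg LNA HFD against 43.9 FPKM in LincIRS2 LNA NCD).

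Promoter windows of these genes were read for the letters of the STAT5 consensus, TTCNNNGAA, which reads the same on either strand. The windows ran from 250 bases before to 50 bases after the start site in RefSeq (GRCm38.p6). Of the 15 lower genes 11 had a window, and the motif was found in those of Moxd1 and C8a, whereas 8.30% of all 32851 windows held it. The 2 windows are shown 5′ to 3′ with the motif in capitals, 150 bases before the start in Moxd1 (chr10:24223267-24223566, plus strand) and 228 bases before it in C8a (chr4:104876349-104876648, minus strand). A match describes the letters only, and windows without a match say nothing of STAT5 binding elsewhere at those genes.

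Moxd1: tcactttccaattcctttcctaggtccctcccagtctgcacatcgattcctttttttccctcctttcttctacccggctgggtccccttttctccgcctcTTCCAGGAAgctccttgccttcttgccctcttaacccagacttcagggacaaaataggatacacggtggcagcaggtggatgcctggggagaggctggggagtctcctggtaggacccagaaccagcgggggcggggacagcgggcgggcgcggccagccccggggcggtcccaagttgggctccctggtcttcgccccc
C8a: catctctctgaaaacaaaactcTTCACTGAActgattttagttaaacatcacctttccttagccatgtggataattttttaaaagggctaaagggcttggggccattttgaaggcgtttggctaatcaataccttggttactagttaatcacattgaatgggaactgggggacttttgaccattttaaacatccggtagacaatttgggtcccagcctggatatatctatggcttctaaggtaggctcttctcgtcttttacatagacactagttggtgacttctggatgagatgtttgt

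Of 28 female-biased genes with a feature 13 passed the floor, and 8 of these were higher with Scr LNA and none lower. This stands beside 5.93% of all genes higher, and the median log2 ratio was 0.89. Cyp2b9, Cyp2a4, Hao2 and Cyp2b10 passed the floor only through the HFD pool in which they were high. For these genes the call was set by the floor. With a floor of 0.1 FPKM 11 were higher and 1 was lower, and with no floor the median was 0.24. Cyp2b9, a cytochrome of female liver on chr7:26173411-26210661 (GRCm38), was at 7.76 FPKM in Scr LNA HFD livers, against 0.0935 FPKM in Scr LNA NCD livers. The further pair did not show this, with 0.447 FPKM in Mafg LNA HFD livers, against 0.469 FPKM in LincIRS2 LNA NCD livers, so the Scr LNA HFD pool stood alone. Cyp2a4 and Hao2, a peroxisomal hydroxy acid oxidase, were low in NCD, at 1.76 FPKM in HFD against 0.0711 FPKM in NCD and 1.33 FPKM in HFD against 0.0245 FPKM in NCD. For Cyp2a4 the further pair had 0.792 FPKM in Mafg LNA HFD against 0.0705 FPKM in LincIRS2 LNA NCD. Abcd2, a peroxisomal transporter of very long chain acyl-CoA, was at 10.1 FPKM in HFD livers, against 5.3 FPKM in NCD livers, and at 4.76 FPKM in Mafg LNA HFD against 5.13 FPKM in LincIRS2 LNA NCD. Cyp17a1, an enzyme of androgen synthesis, was at 5.99 FPKM in HFD livers, against 2.49 FPKM in NCD livers, with the reverse order in the further pair (1.2 FPKM in Mafg LNA HFD against 5.82 FPKM in LincIRS2 LNA NCD). Tox and Cyp2a5 were 1.9 and 1.53 times higher and also higher in the further pair. In that pair 4 of the 13 were higher, all 4 of them higher in both (for Hao2 the LincIRS2 LNA NCD pool was listed at 0), 2 were lower, and the median was -0.06. All genes gave 7.57% higher and 8.43% lower there.

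Genes of drug metabolism regulated by the receptors CAR and PXR overlapped with the female list in Cyp2b10 and Cyp2a5. In total 11 of 27 were higher and 2 lower, beside 5.93% higher and 5.4% lower of all genes. In the further pair 5 were higher and 6 lower, beside 7.57% higher and 8.43% lower of all genes, and 3 were higher in both pairs. Nr1i3, which encodes CAR, was at 21.3 FPKM in Scr LNA HFD livers, against 12.7 FPKM in Scr LNA NCD livers. Cyp2b10, its classical target, was at 0.961 FPKM in HFD livers, against 0.0516 FPKM in NCD livers, and was high in the Scr LNA HFD pool alone. The glutathione transferases Gsta1 and Gsta2, near-identical copies, were at 1.47 FPKM in HFD against 0.123 FPKM in NCD and 6.96 FPKM in HFD against 2.4 FPKM in NCD. Aldh1a1, which makes retinoic acid, was at 23 FPKM in HFD livers, against 9.47 FPKM in NCD livers, with 20.1 FPKM in Mafg LNA HFD against 11.2 FPKM in LincIRS2 LNA NCD in the further pair. The Cyp2c members Cyp2c38, Cyp2c50 and Cyp2c37 were 3.09, 2.08 and 1.62 times higher. Cyp3a11, the main PXR target, had a log2 ratio of -0.30. Fmo5 was lower, at 1.63 FPKM in HFD livers, against 7.56 FPKM in NCD livers, yet the further pair had 2.25 FPKM in Mafg LNA HFD against 2.08 FPKM in LincIRS2 LNA NCD, and Ces2a was lower in both, with 22.7 FPKM in HFD against 39.5 FPKM in NCD and 17.6 FPKM in Mafg LNA HFD against 38.4 FPKM in LincIRS2 LNA NCD.

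**Figure D4:**
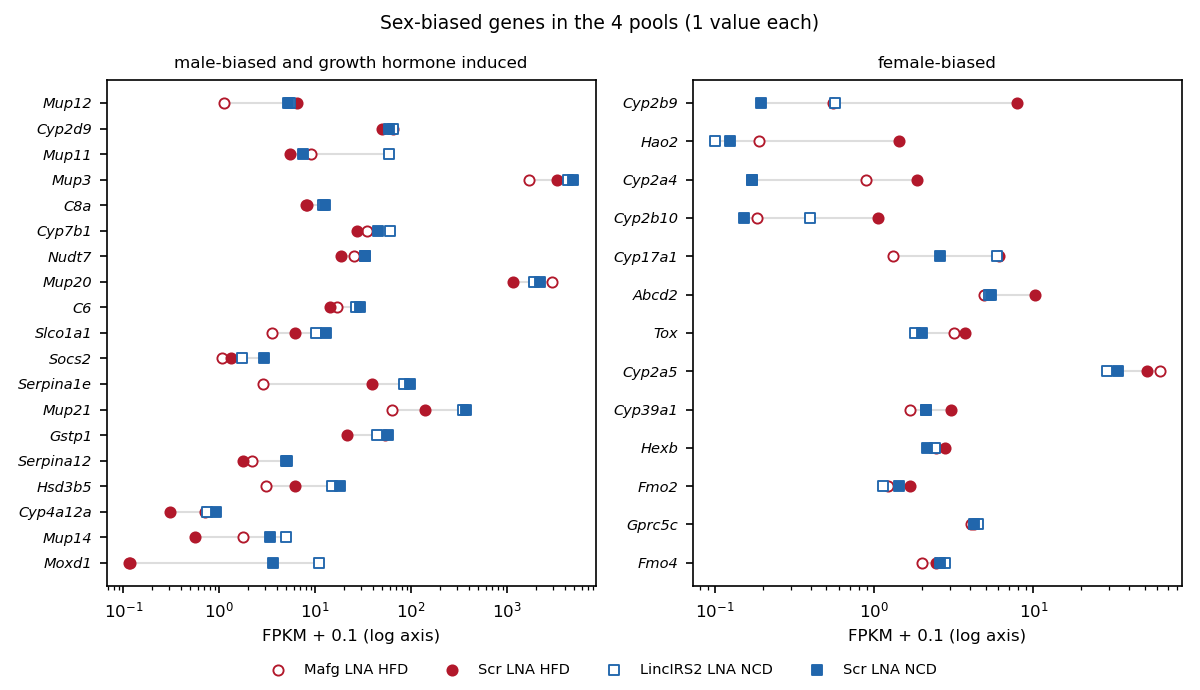
Pooled FPKM plus 0.1 (horizontal log axis) of male-biased and female-biased genes past the floor in the 4 pools, with red circles for HFD and blue squares for NCD, filled for Scr LNA and open for Mafg LNA HFD and LincIRS2 LNA NCD. Both red symbols lie left of both blue ones in 14 male-biased genes, whereas Cyp2b9, Abcd2 and Cyp2b10 are high in the Scr LNA HFD pool alone.

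Of 15 p53 targets past the floor 3 were higher, beside 5.93% of all genes, and 0 lower. Both HFD pools lay above both NCD pools in 11 of the 15, beside 19.4% of all genes. Gdf15, a stress hormone that curbs appetite, was at 1.31 FPKM in Scr LNA HFD livers, against 0.471 FPKM in Scr LNA NCD livers, and at 1.3 FPKM in Mafg LNA HFD livers, against 0.57 FPKM in LincIRS2 LNA NCD livers. Eda2r was at 1.02 FPKM in HFD livers, against 0.328 FPKM in NCD livers, and Ccng1, a cyclin G, at 12.3 FPKM in HFD livers, against 7.82 FPKM in NCD livers. Mdm2, the ligase that degrades p53, was at 3.24 FPKM in HFD livers, against 3.35 FPKM in NCD livers, and so within 1.5-fold. Of 8 NRF2 and glutathione genes 2 were higher, beside 5.93% of all genes. They were Nqo1, a quinone reductase (1.41 FPKM in HFD against 0.696 FPKM in NCD), and Chac1, which breaks down glutathione (1.28 FPKM in HFD against 0.619 FPKM in NCD). Both were higher in the further pair. In the list of the endoplasmic reticulum and integrated stress response Chac1 again and Phgdh, which starts serine synthesis (87.6 FPKM in HFD against 58.3 FPKM in NCD), were the 2 higher of 21, beside 5.93% of all genes. The chaperones Sdf2l1, Dnajb11 and Creld2 had log2 ratios of -0.30, -0.26 and -0.58. Among immediate early genes Egr1 was higher, at 3.69 FPKM in HFD livers, against 0.709 FPKM in NCD livers, and at 0.803 FPKM in Mafg LNA HFD against 0.644 FPKM in LincIRS2 LNA NCD in the further pair, so that the Scr LNA HFD pool stood alone. Gadd45g was lower, at 2.67 FPKM in HFD livers, against 5.22 FPKM in NCD livers, and the remaining genes of the 17 past the floor were within 1.5-fold.

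Genes of glucose handling were mostly within 1.5-fold, and of all genes 5.93% were higher and 5.4% lower. In the list of gluconeogenesis and fasting 3 of 13 were lower and none was higher, with a median log2 ratio of -0.30. They were Tat, which breaks down tyrosine (34.1 FPKM in HFD against 52.9 FPKM in NCD), the alanine transaminase gene Gpt (1.86 FPKM in HFD against 3.08 FPKM in NCD) and the kinase gene Sik1 (0.572 FPKM in HFD against 1.64 FPKM in NCD). G6pc, the last step of glucose release, was at 14.7 FPKM in Scr LNA HFD livers, against 21 FPKM in Scr LNA NCD livers, and at 15.3 FPKM in Mafg LNA HFD against 20.2 FPKM in LincIRS2 LNA NCD in the further pair, so it lay lower in both HFD pools within the limit. Pfkfb3 and Ppp1r3g were the 2 lower of 14 genes of glycogen and glycolysis, at 0.678 FPKM in HFD against 1.93 FPKM in NCD and 0.322 FPKM in HFD against 0.701 FPKM in NCD. Glycogen synthase Gys2 was at 42.7 FPKM in HFD livers, against 52.5 FPKM in NCD livers.

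Of 15 genes of insulin receptor signalling and the IGF axis none was higher and 2 were lower. All genes gave 5.93% higher and 5.4% lower. Igfbp2, a binding protein of insulin-like growth factors, was at 11.8 FPKM in Scr LNA HFD livers, against 29.1 FPKM in Scr LNA NCD livers, and at 13.6 FPKM in Mafg LNA HFD against 18 FPKM in LincIRS2 LNA NCD in the further pair. Lepr, the leptin receptor, was at 0.484 FPKM in HFD livers, against 1.6 FPKM in NCD livers, and at 0.615 FPKM in Mafg LNA HFD against 1.3 FPKM in LincIRS2 LNA NCD in the further pair. For both genes the HFD pools lay below the NCD pools. Among 23 secreted factors 3 were higher and 4 lower, beside 5.93% higher and 5.4% lower of all genes. Tsku, a hepatokine, was at 4.37 FPKM in HFD livers, against 2.14 FPKM in NCD livers, with 4.73 FPKM in Mafg LNA HFD against 2.3 FPKM in LincIRS2 LNA NCD, and Inhbb, an activin subunit, at 0.767 FPKM in HFD livers, against 0.337 FPKM in NCD livers. Fst, the antagonist of activins, was lower at 0.256 FPKM in HFD livers, against 0.96 FPKM in NCD livers, with 0.595 FPKM in Mafg LNA HFD against 0.533 FPKM in LincIRS2 LNA NCD in the further pair, and Inhba and Selenop were 1.75 and 1.72 times lower. Fgf21, an endocrine fasting signal, was at 1.18 FPKM in HFD livers, against 0.802 FPKM in NCD livers.

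Bile acid genes had 1 of 16 higher and 2 lower, which were Cyp7b1 and Slco1a1 of the male pattern. All genes gave 5.93% higher and 5.4% lower. In the further pair none of the 16 was higher and 6 were lower, beside 7.57% higher and 8.43% lower of all genes. Nr0b2, the repressor SHP, was at 1.79 FPKM in Scr LNA HFD livers, against 1.15 FPKM in Scr LNA NCD livers, and Cyp7a1, which makes the first step from cholesterol to bile acids, at 10.7 FPKM in HFD livers, against 8.8 FPKM in NCD livers, with 3.09 FPKM in Mafg LNA HFD against 5.61 FPKM in LincIRS2 LNA NCD in the further pair. Of 23 genes of the urea cycle and amino acid breakdown 1 was higher and 3 were lower. Oat, a pericentral ornithine transaminase, was at 3.71 FPKM in HFD livers, against 2.33 FPKM in NCD livers, and Cbs, which starts transsulfuration, at 1.74 FPKM in HFD livers, against 2.92 FPKM in NCD livers. Bckdk, the kinase that holds back branched-chain amino acid oxidation, was at 0.80 FPKM in HFD livers, against 2.03 FPKM in NCD livers, and Kmo at 0.798 FPKM in HFD livers, against 1.46 FPKM in NCD livers. Nuclear receptors and liver factors had 6 of 21 higher, beside 5.93% of all genes, and 1 lower. Among the higher were Nr1h3 (LXR alpha, 1.75 FPKM in HFD against 0.638 FPKM in NCD) and Esr1 (estrogen receptor, 7.27 FPKM in HFD against 3.47 FPKM in NCD). The lower one was Hes6 (6.45 FPKM in HFD against 11.1 FPKM in NCD). In the further pair 2 of the 21 were higher and 3 lower, beside 7.57% and 8.43% of all genes, and 2 were higher in both pairs. Ppara was at 0.932 FPKM in HFD livers, against 0.901 FPKM in NCD livers, and Hnf4a at 7.43 FPKM in HFD livers, against 7.61 FPKM in NCD livers.

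Genes of liver zonation and of mitochondria were mostly within 1.5-fold, and of all genes 5.93% were higher and 5.4% lower. Of 14 pericentral genes 3 were higher (Aldh1a1, Cyp2c37 and Oat) and none lower. Of 13 periportal genes 2 were higher (Apoa4 and Aldh1b1) and 1 lower, Etnppl at 0.685 FPKM in Scr LNA HFD livers, against 3.18 FPKM in Scr LNA NCD livers. Nuclear genes of the respiratory chain had 1 of 23 higher (Cox7b) and 1 lower (Atp5c1), and mitochondrially encoded genes 1 of 6 lower (mt-Co1). None of 11 clock genes and none of 9 cell cycle genes passed 1.5-fold. In the further pair 5 of these 9 cell cycle genes were higher, beside 7.57% of all genes. Metallothioneins Mt1 and Mt2, which bind zinc, were at 9.87 FPKM in HFD against 4.4 FPKM in NCD and 15.2 FPKM in HFD against 6.12 FPKM in NCD, but at 4.7 FPKM in Mafg LNA HFD against 12.1 FPKM in LincIRS2 LNA NCD and 9.75 FPKM in Mafg LNA HFD against 43 FPKM in LincIRS2 LNA NCD in the further pair, the reverse order. Hamp2, a copy of hepcidin, was lower at 0.50 FPKM in HFD against 0.812 FPKM in NCD, and the list of zinc and iron genes thus had 2 of 8 higher and 1 lower.

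Markers of macrophages and Kupffer cells, the resident macrophages of the liver, were lower in Scr LNA HFD livers. Of 19 past the floor 11 were lower, beside 5.4% of all genes, and none was higher, with a median log2 ratio of -0.63. The complement genes C1qa, C1qb and C1qc were at 5.99 FPKM in HFD against 10.4 FPKM in NCD, 2.86 FPKM in HFD against 5.23 FPKM in NCD and 3.39 FPKM in HFD against 6.13 FPKM in NCD. Vsig4 and Clec4f, defining genes of Kupffer cells, were at 5.12 FPKM in HFD against 7.97 FPKM in NCD and 3.91 FPKM in HFD against 6.1 FPKM in NCD. In a bulk liver, fewer cells of a type and less RNA per cell cannot be told apart. Of the 4 genes of MHC class II presentation past the floor 3 were lower, beside 5.4% of all genes. H2-Aa was at 3.51 FPKM in HFD against 6.56 FPKM in NCD and H2-Eb1 at 3.73 FPKM in HFD against 6.84 FPKM in NCD.

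The 4 pools did not divide by diet in these lists. The summed level of the macrophage list was 108 FPKM in Mafg LNA HFD and 72 FPKM in Scr LNA HFD livers, against 66.9 FPKM in LincIRS2 LNA NCD and 106 FPKM in Scr LNA NCD livers. Csf1r, the receptor that macrophages need, was highest in Scr LNA NCD and lowest in LincIRS2 LNA NCD livers (4.81 FPKM in Mafg LNA HFD against 1.67 FPKM in LincIRS2 LNA NCD beside 2.88 FPKM in HFD against 5.26 FPKM in NCD). In the further pair 13 macrophage markers were higher and 1 lower, with 1 (Cd163) lower in both pairs. All genes gave 7.57% higher and 8.43% lower in that pair. All 4 MHC class II genes were higher there, H2-Aa at 11 FPKM in Mafg LNA HFD against 3.0 FPKM in LincIRS2 LNA NCD. The Scr LNA HFD pool thus lay beside the LincIRS2 LNA NCD pool, and the part of diet in these genes was not tested.

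Among the lists the median farthest from 0 was that of neutrophil markers, and it stood at -3.11. All 7 past the floor were lower, beside 5.4% of all genes. The list had 14 genes with a feature, and Camp and Ngp passed the floor only through the NCD pool in which they were high. The count of 7 and the size of the median thus depend in part on the floor. With no floor 10 were lower and 0 higher, and the median was -1.20. S100a8 and S100a9, the calprotectin subunits, were at 0.643 FPKM in HFD against 7.6 FPKM in NCD and 0.648 FPKM in HFD against 6.38 FPKM in NCD. Camp and Ngp, granule proteins of maturing neutrophils, were at 0.128 FPKM in HFD against 3.49 FPKM in NCD and 0.0201 FPKM in HFD against 1.92 FPKM in NCD. Again the pools did not divide by diet, since in the further pair S100a8 was at 2.25 FPKM in Mafg LNA HFD against 0.702 FPKM in LincIRS2 LNA NCD and S100a9 at 2.95 FPKM in Mafg LNA HFD against 0.464 FPKM in LincIRS2 LNA NCD, and Scr LNA NCD stood above all others for both genes. The whole list summed to 10.4 FPKM in Mafg LNA HFD and 2.78 FPKM in Scr LNA HFD, against 5.11 FPKM in LincIRS2 LNA NCD and 24.3 FPKM in Scr LNA NCD livers. Whether 1 liver of that pool carried the difference was not tested, since only the pooled value is at hand. Markers of T, NK and B cells had no gene past the floor and summed to 4.1, 1.96, 1.49 and 2.84 FPKM in Mafg LNA HFD, Scr LNA HFD, LincIRS2 LNA NCD and Scr LNA NCD livers.

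**Figure D5:**
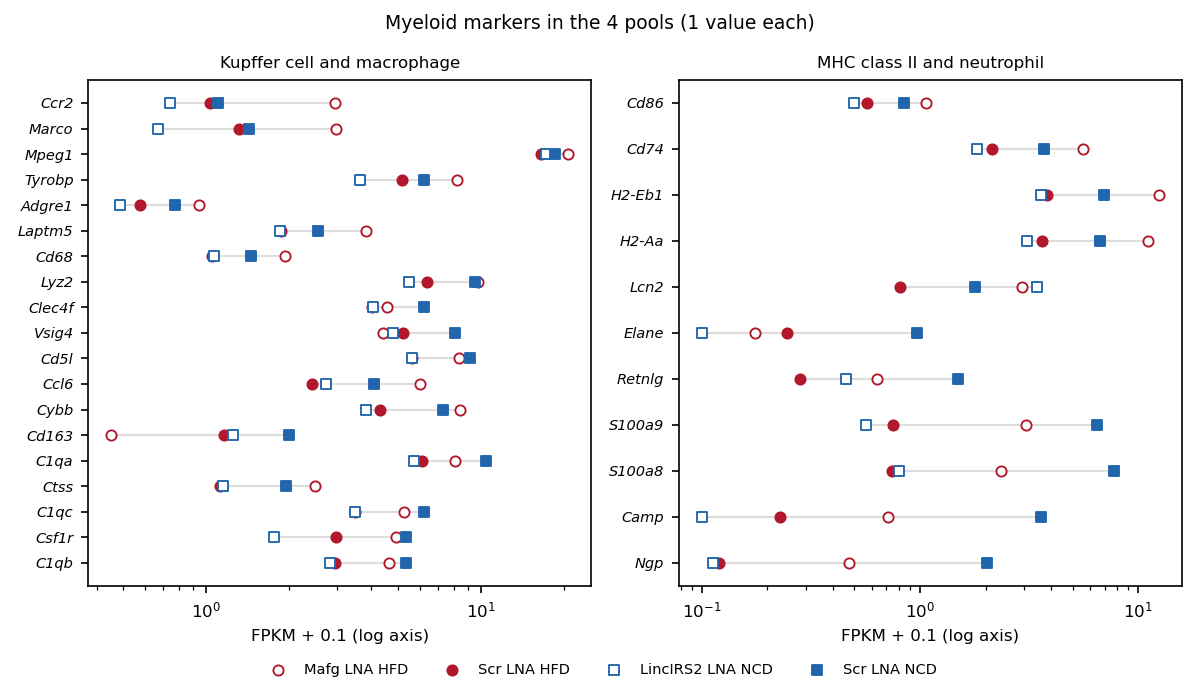
Pooled FPKM plus 0.1 (horizontal log axis) of macrophage, MHC class II and neutrophil markers past the floor in the 4 pools, with red circles for HFD and blue squares for NCD, filled for Scr LNA and open for Mafg LNA HFD and LincIRS2 LNA NCD. For S100a8, S100a9, Camp and Ngp the filled blue square of Scr LNA NCD lies to the right of the other 3 pools.

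Genes of the acute phase were mixed. All genes, for the counts that follow, gave 5.93% higher and 5.4% lower in the Scr LNA pair. In the further pair they gave 7.57% higher and 8.43% lower. Of 25 acute phase genes 2 were higher (Orm3 and Saa4) and 5 lower. The serum amyloids Saa1 and Saa2 were at 3.06 FPKM in HFD against 5.27 FPKM in NCD and 2.12 FPKM in HFD against 3.63 FPKM in NCD, Orm2 at 8.18 FPKM in HFD against 14.5 FPKM in NCD, Lcn2, which neutrophils express too, at 0.706 FPKM in HFD against 1.69 FPKM in NCD, and fibrinogen Fgb at 226 FPKM in HFD against 342 FPKM in NCD. Fgb was also lower in the further pair (179.9 FPKM in Mafg LNA HFD against 374 FPKM in LincIRS2 LNA NCD). Interferon-stimulated genes had 1 of 18 higher, Ubd (0.84 FPKM in HFD against 0.32 FPKM in NCD), and none lower, whereas 12 were higher in the further pair. Of 13 chemokine and cytokine genes Il1rn was higher (2.61 FPKM in HFD against 1.39 FPKM in NCD) and Ccl24 lower (0.378 FPKM in HFD against 0.629 FPKM in NCD). Among the other cell types, 1 of 14 endothelial markers was lower (Eng), 1 of 15 stellate cell and matrix genes was higher (Col6a1, 1.88 FPKM in HFD against 1.2 FPKM in NCD), and 2 of 5 cholangiocyte markers were lower (Tff3 and Anxa4). None of 7 erythroid genes differed by 1.5-fold, but in the further pair 5 were lower and 1 was higher, with a median log2 ratio of -1.04. The erythroid list summed to 908 FPKM in Mafg LNA HFD and 1959 FPKM in Scr LNA HFD, against 2040 FPKM in LincIRS2 LNA NCD and 2053 FPKM in Scr LNA NCD livers, and the part of blood content in the further pair was not tested. Of 4 adipocyte markers Cfd was higher (0.816 FPKM in HFD against 0.314 FPKM in NCD) and Lpl lower, and the hepatocyte list had 2 of 15 higher (Cebpa and Serpina1b) and 4 lower (Serpina1a, Tat, Apoa1 and Fgb).

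LncRNA were counted apart because the study is concerned with them. Of 761 lncRNA past the floor 47 were higher and 44 lower, shares near those of all genes, 5.93% higher and 5.4% lower. Of 5 L-DIO-lncRNAs past the floor, lncRNA that the study names for their repression in diet-induced obesity, none was higher and 1 was lower, B930025P03Rik at 0.573 FPKM in Scr LNA HFD livers, against 1.47 FPKM in Scr LNA NCD livers, with 1.58 FPKM in Mafg LNA HFD against 1.47 FPKM in LincIRS2 LNA NCD in the further pair. Between the further pools 3 of the 5 were lower and none was higher, with a median log2 ratio of -0.64, and none was lower in both pairs. All genes gave 8.43% lower between those pools. LincIRS2 (4833411C07Rik, chr8:10899922-10903893, GRCm38) lay below the floor, at 0.213 FPKM in HFD livers, against 0.558 FPKM in NCD livers. Its neighbour Irs2, an insulin receptor substrate, had a feature below the floor as well, at 0.0685 FPKM in HFD livers, against 0.125 FPKM in NCD livers. Gm10319, the most abundant L-DIO-lncRNA, was at 12.9 FPKM in HFD livers, against 13.6 FPKM in NCD livers. Of 7 other liver lncRNA Dleu2 was higher, at 1.12 FPKM in HFD livers, against 0.615 FPKM in NCD livers.

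With a mean of at least 1 FPKM, the lncRNA of highest ratio were Gm35164 (5.27 FPKM in HFD against 1.18 FPKM in NCD), Lncbate1 (2.12 FPKM in HFD against 0.737 FPKM in NCD), Gm10680 as above, AW112010 (10.2 FPKM in HFD against 3.99 FPKM in NCD) and 4930480G23Rik (1.64 FPKM in HFD against 0.606 FPKM in NCD). The first of them had 1.36 FPKM in Mafg LNA HFD against 1.58 FPKM in LincIRS2 LNA NCD in the further pair, while in Lncbate1, AW112010 and 4930480G23Rik both HFD pools lay above both NCD pools. Those of lowest ratio were Gm45812 (0.342 FPKM in HFD against 3.07 FPKM in NCD), Gm16984 (0.539 FPKM in HFD against 2.26 FPKM in NCD), Gm30211 (0.788 FPKM in HFD against 2.11 FPKM in NCD), Gm47467 (1.05 FPKM in HFD against 2.69 FPKM in NCD) and B930025P03Rik. Of these Gm16984 was also lower in the further pair, at 0.254 FPKM in Mafg LNA HFD livers, against 1.63 FPKM in LincIRS2 LNA NCD livers.

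The protein-coding genes of highest ratio with a mean of at least 1 FPKM included, beside genes described above, Slc22a27. This organic anion transporter on chr19:7864388-7966027 (GRCm38) was at 6.19 FPKM in Scr LNA HFD livers, against 0.0715 FPKM in Scr LNA NCD livers, and at 3.34 FPKM in Mafg LNA HFD livers, against 0.156 FPKM in LincIRS2 LNA NCD livers. Lgals1, the lectin galectin-1, was at 4.76 FPKM in HFD livers, against 0.835 FPKM in NCD livers, and at 7.56 FPKM in Mafg LNA HFD against 1.18 FPKM in LincIRS2 LNA NCD in the further pair. Cmbl, a hydrolase, was at 2.05 FPKM in HFD livers, against 0.0311 FPKM in NCD livers, and at 4.58 FPKM in Mafg LNA HFD against 1.05 FPKM in LincIRS2 LNA NCD. Dydc2 (9.44 FPKM in HFD against 0.00139 FPKM in NCD), Gm3776 (3.88 FPKM in HFD against a listed 0 in NCD), Gm21738 (1.94 FPKM in HFD against 0.159 FPKM in NCD), Gm10800 (21.3 FPKM in HFD against 3.48 FPKM in NCD), Gm10801 (10.1 FPKM in HFD against 1.93 FPKM in NCD) and 9130409I23Rik (9.33 FPKM in HFD against 1.83 FPKM in NCD) were likewise higher in both pairs. Gm10800, Gm10801 and Gm21738 are predicted genes of like sequence, so their reads are uncertain. Capns1, the small calpain subunit (2.77 FPKM in HFD against 0.294 FPKM in NCD), and Ribc1 (2.79 FPKM in HFD against 0.427 FPKM in NCD) were higher in the Scr LNA pair only, their log2 ratios in the further pair being -0.96 and -0.78.

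At the other end stood Fabp5, an epidermal fatty acid binding protein on chr3:10012548-10016607 (GRCm38), at 0.407 FPKM in Scr LNA HFD livers, against 6.6 FPKM in Scr LNA NCD livers. The further pair gave 0.387 FPKM in Mafg LNA HFD livers, against 6.24 FPKM in LincIRS2 LNA NCD livers, nearly the same values in other livers. Adgrf1, an adhesion receptor (0.424 FPKM in HFD against 4.11 FPKM in NCD, 0.319 FPKM in Mafg LNA HFD against 2.59 FPKM in LincIRS2 LNA NCD), Chrna4, a nicotinic receptor subunit (0.242 FPKM in HFD against 1.77 FPKM in NCD, 0.0516 FPKM in Mafg LNA HFD against 1.65 FPKM in LincIRS2 LNA NCD), Tff3, a trefoil peptide (1.2 FPKM in HFD against 6.06 FPKM in NCD, 1.63 FPKM in Mafg LNA HFD against 4.88 FPKM in LincIRS2 LNA NCD), and Itih2, a carrier of hyaluronan (2.02 FPKM in HFD against 9.76 FPKM in NCD, 0.994 FPKM in Mafg LNA HFD against 4.82 FPKM in LincIRS2 LNA NCD), were lower in both pairs. Kctd1 and Bhlhe22 were listed at 0 in the other 3 pools and at 10.5 and 5.47 FPKM in Scr LNA NCD livers. Slamf6 (a listed 0 in HFD against 2.61 FPKM in NCD) and C1s1 (0.00908 FPKM in HFD against 2.83 FPKM in NCD) were within 1.5-fold in the further pair, with log2 ratios of 0.10 and -0.27.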

How the data were processed

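Livers were grouped by the LNA and diet of their labels. According to the submitters' processing notes and the study's methods, reads were trimmed with flexbar, mapped to GRCm38 (mm10) with STAR 2.6.0c (Bowtie2 2.2.9 is also named), assembled with Cufflinks 2.2.1 and quantified with Cuffdiff, which the authors used to pool the 4 livers of a group into 1 FPKM value per feature. The deposited FPKM values of 3 tables were joined on the feature identifier, and the Scr LNA pools came from the table that compares them. Columns with the authors' own fold changes, statistics, p-values and significance marks were not used. The 8 livers given Mafg LNA under NCD or LincIRS2 LNA under HFD are not analysed here. No column holds a single liver, so no spread, depth or interval could be computed and no test was run.

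Single results for some members of the lists are not reported here. Each gene was represented by its 1 feature of highest mean over the 4 pools, and log2((HFD + 0.1)/(NCD + 0.1)) was taken for genes with a mean of at least 0.5 FPKM (Python 3.11.15, pandas 2.3.3, numpy 2.4.6). The calculation was tested on simulated data. Genes named were the 15 protein-coding and 5 lncRNA genes of highest and of lowest ratio with a mean of at least 1 FPKM, list members past 1.5-fold and abundant members of each list, and LincIRS2, Irs2 and Mafg. The 41 lists (921 genes) and the comparison itself were chosen with earlier results of these data known, and the further pair of pools after the data had been seen. Alternatives were other pseudocounts, floors, scalings, a 2-fold limit and the sum of all features of a gene.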

Additional observations from a re-analysis of the deposited data

How the results depend on the processing

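The counts of genes past the limit moved by more than 1.5 times with the pseudocount, the floor and the fold. With a pseudocount of 1 FPKM 253 genes were higher and 236 lower under HFD. A floor of 0.1 FPKM gave 1003 higher and 1061 lower, no floor 1402 and 1436, and a floor of 2 FPKM 205 and 190. At 2-fold 199 were higher and 179 lower. Scaling to protein-coding features gave 653 higher and 393 lower, so that 62.4% of calls were higher, beside 52.3% as deposited. None of the 166 named genes changed sign. Of 40 list medians 13 did in at least 1 alternative, all of them between -0.23 and 0.13 as first computed, among them periportal genes, cell cycle genes and chemokines, which reached 0.31, 0.45 and 0.35 with the floor of 2 FPKM. Of 1266 values of named genes 75 moved, 53 of them with the pseudocount of 1 FPKM, and of 320 list medians 4 moved, 3 of these for neutrophil markers and 1 for female-biased genes, whose median was 0.24 with no floor. In the further pair the lipogenic list had a median log2 ratio of -0.31 as deposited and 0.01 when scaled. No paired analysis was possible because the pooled columns carry no replicate numbers, and no liver could be left out for the same reason. Levels near the floor rest on few reads of unknown number.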
